A study of Rattus norvegicus with 4 samples.

Results

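Complement is a cascade of plasma and cell-surface proteins that marks particles for uptake by phagocytes and can perforate membranes. C1r and C1s are the serine proteases of the C1 complex and start the classical pathway. C2 and factor B (Cfb) supply the catalytic subunits of the C3 convertases, factor D (Cfd) cleaves factor B, and C3 is the central component on which the activation routes converge. Host cells hold the cascade back with C1 inhibitor (Serping1), which inactivates C1r and C1s, with decay-accelerating factor (Cd55), which takes the convertases apart, and with Cd59, which blocks assembly of the membrane attack complex. The liver makes most circulating complement, and cells of the vessel wall can also make components.

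Complement genes were examined in aortic smooth muscle cells in culture, from rats of the Sprague-Dawley strain. The cells had spent 5 days in medium with 10% serum and 3 days without serum. For 24 hours, 2 samples then had the vehicle, 0.1% bovine serum albumin (BSA), and 2 samples had the inflammatory cytokine interleukin-1 beta (IL-1b) at 2.5 ng/mL. RNA of each sample was read on its own single-colour array of 31099 probe sets, sets of short probes that each read a transcript. The question was how activators and inhibitors of complement differed between cytokine and vehicle. The labels number the samples but do not call them separate cultures, so the p-values cover only how these samples vary, possibly for technical reasons.

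Members were the probe sets annotated with exactly 1 gene symbol from a list of 9 complement genes. That rule found 6 of the 9 genes, in 7 probe sets, among 14217 genes with such a probe set. They were the activators C3, C1s, C1r and Cfd and the inhibitors Serping1 and Cd55, the last with 2 probe sets. Cfb and C2, which lie side by side in the genome, had none: 4 probe sets carry both symbols together, so neither gene has a value here. No probe set carries the symbol Cd59. The probe set annotated as Cd59b, a gene for which RefSeq gives Cd59 as a synonym, is shown beside the members and left out of their counts.

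The arrays carried the transcripts of smooth muscle. All 8 smooth muscle markers examined, among them Acta2, Myh11, Tagln and Cnn1, were above background on both vehicle arrays, and 7 of the 8 were lower with IL-1b. Summed, these markers gave an intensity of 31702 and 32279 with vehicle against 11731 and 8746 with IL-1b. Background means the 95th percentile of 27 dim control probe sets for bacterial transcripts on the same array, which was 29.4 and 26.9 with vehicle, and 76.7 and 18.8 with IL-1b. Of 8 macrophage markers, Lyz2 was the only one above background on both IL-1b arrays, at 685 and 969 against 3.83 and 10.2 with vehicle. The macrophage markers summed to 158 and 122.5 with vehicle and to 956 and 1088 with IL-1b. The pan-leukocyte marker Ptprc, at its brightest probe set, was below background on both vehicle arrays and on IL-1b replicate 2, and read 94.9 on IL-1b replicate 1. The macrophage receptor Csf1r read 55.5 and 49.8 with vehicle and 16.7 and 28.8 with IL-1b. Cd68 went the other way, at 10.8 and 5.55 with vehicle and 40.2 and 32.5 with IL-1b, above background on IL-1b replicate 2 alone. At their brightest probe sets, Adgre1 was above background on IL-1b replicate 2 alone and Aif1 on IL-1b replicate 1 alone. Fcgr1a was above it on vehicle replicate 1 alone, and Cd163 on no array. Of 6 fibroblast markers, Pdgfra and Dpt rose and Col14a1 fell, and the list summed to 3722 and 3726 with vehicle and to 2632 and 3134 with IL-1b. Endothelial, adipocyte, hepatocyte and T cell markers summed to between 90.8 and 183 per list on the vehicle arrays and to between 46.3 and 486 on the IL-1b arrays, and 0 of the 6 bright enough to test passed. The part of other cells in the results below was not tested, and in such bulk RNA fewer cells of a type and less transcript per cell cannot be told apart. One library differed in technical measures: on IL-1b replicate 1 the spiked hybridisation controls read 3.50 times their vehicle mean, and on IL-1b replicate 2 0.954 times. On IL-1b replicate 1 54.2% of probe sets were above background, and on the other arrays 65.2% to 72.3%. The Pearson correlation was 0.902 between the IL-1b arrays and 0.948 between the vehicle arrays. Across groups it was 0.854 to 0.92, so the IL-1b arrays were less alike than the closest pair across groups.

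With IL-1b the cells held far more C3 transcript, several times more of the C1 inhibitor transcript Serping1 and slightly more C1s, while C1r did not pass the test. For Cd55 one probe set rose and the other did not pass. Cd59b fell. Change is given as a log2 fold change, IL-1b minus vehicle, on log2(intensity + 5.49), and a gene passed at an adjusted p under 0.05 in limma, a linear model fitted to all 18625 probe sets bright enough to test. Of the 7 member probe sets 6 were tested, and all 6 were above the brightness filter in each group taken alone. Of these 4 rose, 0 fell and 2 did not pass, where 13.4% of all tested probe sets passed, 6.32% higher and 7.11% lower. Their median log2 fold change was 0.64, against 0.02 over all tested probe sets. By role, 2 of 3 tested activator probe sets and 2 of 3 tested inhibitor probe sets rose. The activator probe sets stood for 3 genes and the inhibitor probe sets for 2, and Cd59b was not counted. With a vehicle array left out the count of 4 fell, and with an IL-1b array left out it rose. The count over all tested probe sets moved the same way, and a lone array was then assumed to vary like the other group. The member count was 2 with median centring of the arrays and 1 without the intensity trend of the variance.

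**Figure D1:**
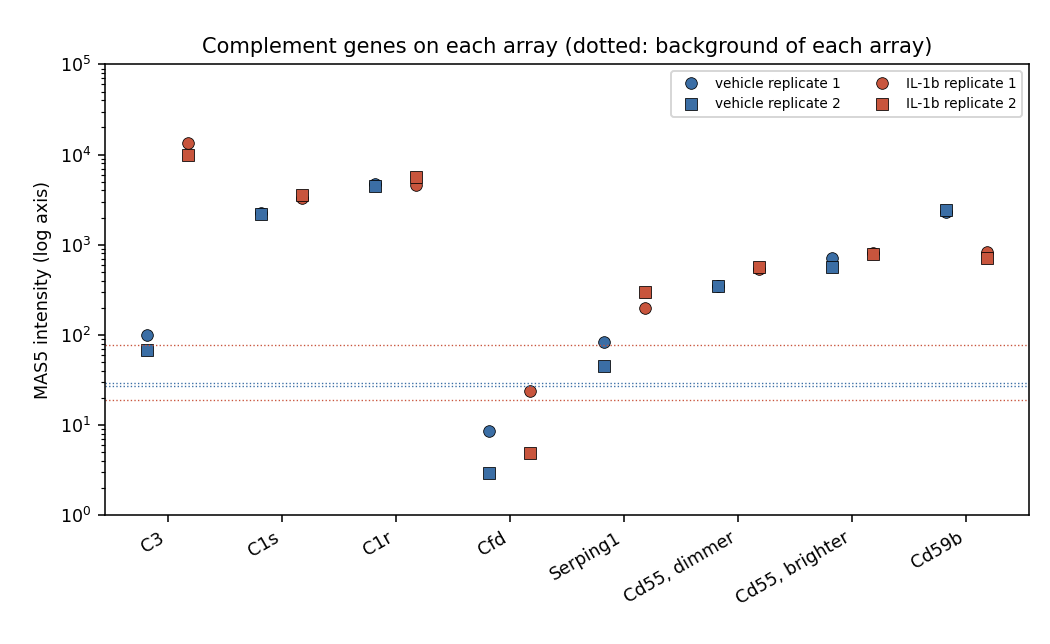
MAS5 intensity (log axis) of each complement gene on each array, with vehicle in blue, IL-1b in red, replicate 1 as circles and replicate 2 as squares; dotted lines mark each array's background. C3 stands near 84.1 with vehicle and near 11701 with IL-1b, Cd59b is lower with IL-1b, and Cfd lies under the background of every array.

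C3 moved most of the members. It read 100.4 and 67.9 with vehicle and 13582 and 9821 with IL-1b. The groups lay far apart, and all 4 values were above background. The means were 84.1 ± 23.0 and 11701 ± 2659 (SD, n = 2), a log2 fold change of 7.03 ± 0.23 (SE), or 131-fold, with an adjusted p of 3.2e-05 in limma. Over the 4 pairings of an IL-1b array with a vehicle array the log2 difference was 6.54 to 7.53. Among the 18625 tested probe sets it ranked 13 by increase. No alternative processing took C3 across the threshold, with log2 fold changes of 6.77 to 7.30 when an array was left out.

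**Figure D2:**
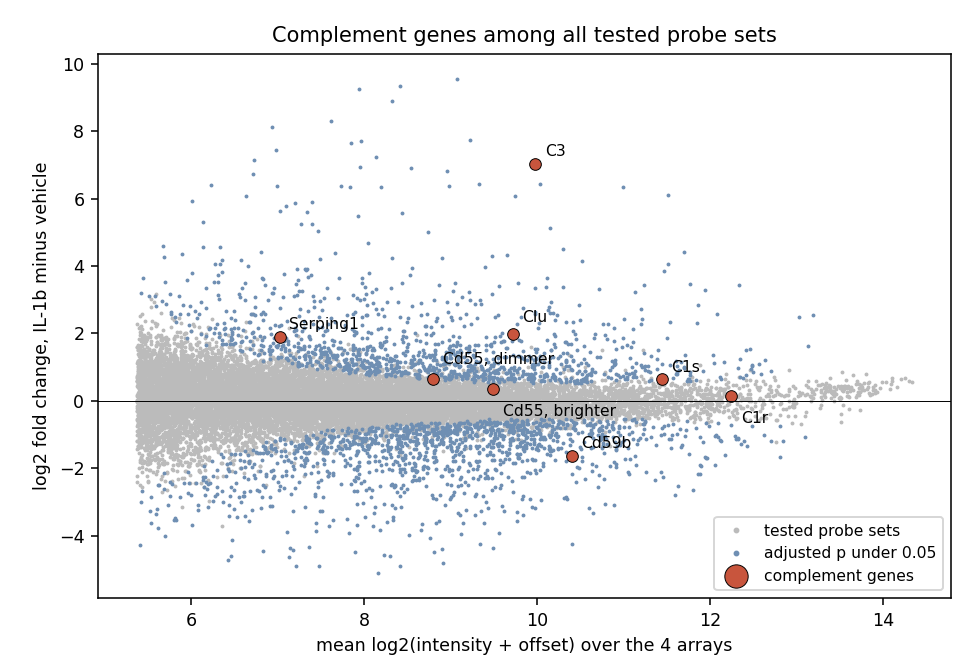
Log2 fold change with IL-1b against mean log2(intensity + offset) over the 4 arrays, for all tested probe sets (grey, or blue at an adjusted p under 0.05), with complement genes in red. C3 at 7.03 lies above nearly all probe sets, Serping1 at 1.90 and Clu at 1.99 lie among the increases, and Cd59b at -1.62 among the decreases.

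C1s and C1r, which lie side by side in the genome with no annotated gene between them and act together in the C1 complex, were both bright without the cytokine. C1s read 2246 and 2199 with vehicle and 3318 and 3605 with IL-1b, so both IL-1b arrays were above both vehicle arrays. Its log2 fold change was 0.64 ± 0.14 (SE), or 1.55-fold, at an adjusted p of 0.029 in limma. That call was lost without vehicle replicate 1 (adjusted p = 0.39), without vehicle replicate 2 (0.45), with median centring (0.48) and without the intensity trend (0.14), while the log2 fold change stayed at 0.43 to 0.70 in all settings tried.

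C1r read 4662 and 4522 with vehicle and 4607 and 5667 with IL-1b, and the groups overlapped. Its log2 fold change was 0.15, with a 95% interval from -0.26 to 0.56 (adjusted p = 0.61). The IL-1b arrays disagreed on it: without IL-1b replicate 1 the log2 fold change was 0.30 and without IL-1b replicate 2 it was 0. With median centring it was -0.05. Set against each other within each array, C1s gained 0.48 on C1r on the log2 scale, and 0.39 to 0.58 over the 4 pairings of arrays. With 2 arrays a group an exact permutation test of such a difference cannot go below a two-sided p of 0.33, so none is given.

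Cfd, the protease of the alternative pathway, was too dim to test. It read 8.65 and 2.95 with vehicle and 23.7 and 4.92 with IL-1b, under the background of each array. At this signal neither its presence nor a change was detectable.

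RefSeq's table of promoter windows for the GRCr8 assembly, from 250 bases before the transcription start to 50 bases after it, held 4 of the 9 listed genes: C3, C1r, Cfd and Cd55. The windows of C3 and C1r are printed 5′ to 3′ on the gene's strand, because these activators stand at opposite ends of the response, with the largest and the smallest tested change. C3 lies on the minus strand at chr9:2201290-2201589 and C1r on the plus strand at chr4:159098763-159099062. Capitals mark the only matches found to any of 4 motifs searched on both strands.
C3: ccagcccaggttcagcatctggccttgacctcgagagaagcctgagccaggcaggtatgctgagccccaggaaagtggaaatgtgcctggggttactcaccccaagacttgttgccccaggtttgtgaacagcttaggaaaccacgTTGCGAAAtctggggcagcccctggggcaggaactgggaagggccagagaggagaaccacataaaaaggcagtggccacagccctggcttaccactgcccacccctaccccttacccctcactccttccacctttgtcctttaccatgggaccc
C1r: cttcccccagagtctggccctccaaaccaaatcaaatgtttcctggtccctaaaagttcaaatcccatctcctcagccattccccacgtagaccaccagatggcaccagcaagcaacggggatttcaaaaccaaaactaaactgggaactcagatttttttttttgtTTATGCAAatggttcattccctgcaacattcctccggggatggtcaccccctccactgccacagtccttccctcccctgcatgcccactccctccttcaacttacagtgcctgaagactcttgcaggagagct
The motifs were GGANNTTCC for NF-kB, TTGCNNAA for C/EBP factors, TTCNNNGAA for STAT factors and GAAANNGAA for interferon-responsive elements. The C3 window held 1 C/EBP match, TTGCGAAA, at 104 to 97 bases before the start, on the gene's strand. The C1r window also held 1 C/EBP match, TTATGCAA, at 83 to 76 bases before the start, on the opposite strand. The windows of Cfd and Cd55 held no match to the 4 motifs. Over 19714 windows of the same length for genes with a name other than a provisional locus name, 10.2% held the C/EBP motif, 4.16% the NF-kB motif, 8.08% the STAT motif and 8.68% the interferon motif. The C/EBP match stood in the window of C3, which rose, and in that of C1r, which did not pass. A match describes the letters of the window and not a bound site.

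Among the inhibitors, Serping1, which traps and inactivates C1r and C1s, rose. It read 83.0 and 45.5 with vehicle and 201 and 299.7 with IL-1b. All 4 values were above background, and the lower IL-1b value was above the higher vehicle value. The log2 fold change was 1.90 ± 0.39 (SE), or 3.74-fold, with an adjusted p of 0.020 in limma. It stayed past the threshold with each array left out in turn, at 1.50 to 2.30, and missed it without the intensity trend (adjusted p = 0.077). Set against its targets within each array, Serping1 gained 1.26 on C1s on the log2 scale, 0.66 to 1.87 over the 4 pairings of arrays, and 1.75 on C1r, 1.24 to 2.26 over the pairings. C3 in turn gained 5.13 on Serping1, 4.48 to 5.78 over the pairings.

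Cd55 was read by 2 probe sets. The brighter read 714.5 and 562 with vehicle and 816 and 793 with IL-1b, a log2 fold change of 0.34 ± 0.17 (SE) with a 95% interval from -0.06 to 0.74 and an adjusted p of 0.25. The dimmer read 349.8 and 352 with vehicle and 538 and 565.5 with IL-1b, a log2 fold change of 0.64 ± 0.16 (SE), or 1.56-fold, at an adjusted p of 0.041. In both probe sets the IL-1b arrays were above the vehicle arrays. At a similar SE the dimmer gained 0.30 on the brighter on the log2 scale, and 0.07 to 0.53 over the 4 pairings of arrays. The call of the dimmer was lost on leaving out either vehicle array, with median centring (adjusted p = 0.60) and without the intensity trend (0.14). The brighter was at 0.32 without IL-1b replicate 1 and at 0.36 without IL-1b replicate 2. Calls that single genes gained with a lone IL-1b array are not listed, since that array was assumed to vary like the vehicle group. The probe sets read the same gene and are not replicates of it.

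Cd59b, the inhibitor of the last step of the cascade, fell. It read 2289 and 2444 with vehicle and 823 and 708 with IL-1b, with no overlap. The log2 fold change was -1.62 ± 0.15 (SE), or 3.08-fold lower, with an adjusted p of 6.6e-04 in limma, and it passed in every setting tried, at -1.83 to -1.52. Set against Cd55 at its brighter probe set, Cd59b lost ground on each of the 4 pairings of arrays: Cd55 gained 1.97 on Cd59b on the log2 scale, 1.66 to 2.27 over the pairings. The inhibitors named here held a gene that rose, Serping1, and a gene that fell, Cd59b.

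**Figure D3:**
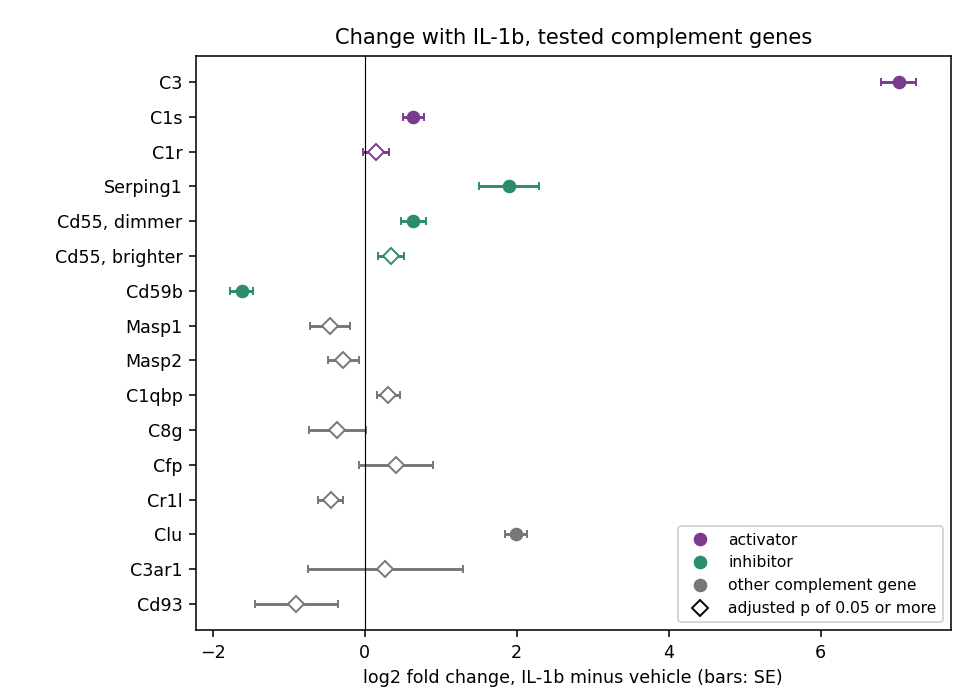
Log2 fold change with IL-1b (points) and its standard error (bars) for the tested complement genes, activators in purple, inhibitors in green and other genes of the pathway in grey, with open diamonds for genes at an adjusted p of 0.05 or more. C3 stands alone at 7.03, Serping1 and Clu are near 1.90 and 1.99, Cd59b is at -1.62, and most other genes of the pathway lie near 0 with open symbols.

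The rest of the pathway was largely dim in these cells. Of 42 other complement genes listed, 32 had a probe set of their own. Of those, 23 were too dim to test at their brightest probe set, 12 of them below background on all 4 arrays. By comparison, 10000 of the 14217 genes on the array with such a probe set were bright enough to test. Of the 9 tested, 1 rose, 0 fell and 8 did not pass, where 15.3% of the 10000 genes tested at their brightest probe set passed, 7.19% higher and 8.13% lower. Their median log2 fold change was -0.28. With either IL-1b array left out more of these genes passed, and so did more of all tested probe sets.

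The gene that rose was Clu (clusterin), a secreted chaperone that binds the terminal complex and keeps it off membranes. It read 405 and 429 with vehicle and 1639 and 1718 with IL-1b, which were far apart for the spread within each group. The log2 fold change was 1.99 ± 0.14 (SE), or 3.99-fold, at an adjusted p of 2.4e-04 in limma, and 1.79 to 2.03 in the other settings. Its other probe set was below background on every array.

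Cr1l, the rodent membrane regulator also known as Crry, read 1045 and 896 with vehicle and 639 and 783 with IL-1b at its brightest probe set, with no overlap. Its log2 fold change of -0.45 did not pass (adjusted p = 0.14). Without IL-1b replicate 1 it was -0.30, and without IL-1b replicate 2 it was -0.59. C1qbp, a binding protein of C1q that is mostly mitochondrial, had a log2 fold change of 0.31 (adjusted p = 0.23), and passed without either IL-1b array in turn (0.014 and 6.2e-04). Masp1, a protease of the lectin pathway, was at -0.46 (adjusted p = 0.31). It was at -0.74 without IL-1b replicate 1 and at -0.17 without IL-1b replicate 2. Its other tested probe set went the other way, at 1.23 (adjusted p = 0.33). That probe set read 44.3 and 25.2 with vehicle and 168.5 and 42.7 with IL-1b, with overlap. Its log2 mean with vehicle, 5.29, was under the filter of 5.37.

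C3ar1, the receptor for the C3a fragment, read 44.6 and 24.5 with vehicle and 121 and 11.8 with IL-1b. It was below background on replicate 2 of each group, and its log2 mean with vehicle, 5.28, was under the filter of 5.37. The log2 fold change of 0.27 ± 1.02 (SE) rested on which IL-1b array was kept. With only replicate 1 of the cytokine group kept it was 1.71, and with only replicate 2 of that group kept it was -1.17.

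Among the genes too dim to test were the chains of the recognition protein C1q. C1qa read 21.2 and 4.46 with vehicle and 17.1 and 2.35 with IL-1b, under the background of each array. C1qc read 3.20 and 1.96 with vehicle and 34.6 and 4.23 with IL-1b, also under background. C1qb read 48.7 and 1.85 with vehicle and 71.0 and 5.16 with IL-1b, and was above background on vehicle replicate 1 alone. The proteases C1r and C1s, which bind C1q, were above background on all 4 arrays. C5, which is cleaved to start the terminal pathway, read 24.8 and 4.33 with vehicle and 47.8 and 3.47 with IL-1b, also under background. Cfi, the protease that inactivates C3b, read 25.6 and 5.40 with vehicle and 126 and 9.69 with IL-1b, and was above background on IL-1b replicate 1 alone. Cd46, a membrane cofactor of Cfi, read 7.90 and 12.6 with vehicle and 13.0 and 5.29 with IL-1b, under background. Neither C4a nor C4b has a value here, since 1 probe set carries both symbols.

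**Figure D4:**
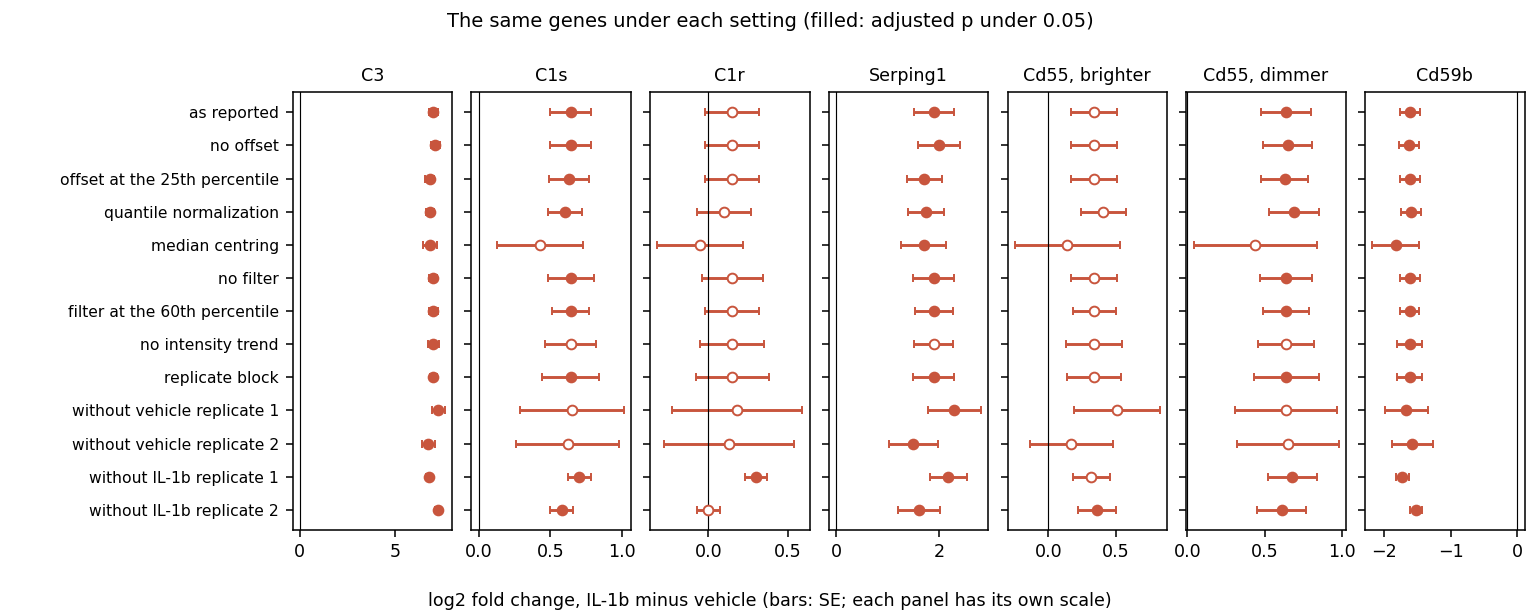
Log2 fold change with IL-1b (points, filled at an adjusted p under 0.05) and its standard error (bars) of 7 probe sets under the reported fit and 12 other settings, each panel on its own scale. C3 and Cd59b are filled in every setting, whereas C1s and the dimmer Cd55 probe set are open without either vehicle array.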

How the data were processed

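The authors deposited linear MAS5 intensities, per the submitters' processing notes. The MAS5 version is not given in the sources used here. The method subtracts background and scales each array, and the trimmed mean was 250.1 on each array, so no other normalization was applied. The median intensities still differed, at 66.4 and 61.3 with vehicle and 89.6 and 61.7 with IL-1b. Intensities were raised by 5.49 (their 10th percentile) before log2, which understates changes of dim genes. Non-control probe sets with a mean log2 value at or above the 40th percentile (5.37) were tested.

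The 18625 probe sets left were fitted on group means with limma 3.58.1 in R 4.3.3, with eBayes and an intensity trend, which had 2 residual degrees of freedom. The Benjamini-Hochberg adjustment ran over all tested probe sets. The procedure was tested on simulated data with the same noise level on all 4 arrays. That simulation held no array that differs as IL-1b replicate 1 does. The brightest probe set stood for a gene. Gene names came from the platform annotation; 436 probe sets had several symbols and 9780 were not listed.

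The members and lists were chosen with earlier results of these data known. Named were every member, every other complement gene past the threshold, and C4a, C4b, Cfi, Cd46, Cr1l, Clu and C5 whatever their values (another item of that rule is not reported here); C1qbp, Masp1, C3ar1, the C1q chains, C8g and Cfp were named after their values were seen. Genes were not ranked by likeness to the members, since 4 arrays cannot rank it. Alternatives were other offsets, normalizations, filters and priors, the replicate number as a block and leaving out each array; a lone array was then assumed to vary like the other group. The number of arrays limits the precision.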

Additional observations from a re-analysis of the deposited data

How the results depend on the processing

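C3, Cd59b and Clu kept their direction and their side of the threshold in all 12 alternatives tried for each. Median centring moved all log2 fold changes by -0.21 and the share of higher calls from 47.1% to 34.4% (563 higher and 1074 lower, 1637 in all, against 2503), left 2 member probe sets past the threshold, and put C1s at 0.43 and C1r at -0.05. Without the intensity trend 963 probe sets and 1 member probe set passed, with C1s at 0.64 (adjusted p = 0.14) and Serping1 at 1.90 (0.077). At an adjusted p under 0.01, 1 member probe set passed. The other probe set of Cd55 gave 0.64. With an array left out, the probe sets past the threshold numbered 1357 to 8666, member probe sets 2 to 5 and other complement genes 1 to 4; C1s was at 0.58 to 0.70, C1r at 0.00 to 0.30 and Cd55 at 0.17 to 0.51. Besides C1r under median centring, the cases that turned direction, none of them called, were C8g at 0.04 without IL-1b replicate 2, Cfp at -0.01 and C3ar1 at -0.10 without vehicle replicate 2, and C3ar1 at -1.17 without IL-1b replicate 1. For C8g, Cfp and C3ar1 the lowest and highest values with an array left out were -0.75 and 0.04, -0.01 and 0.82, and -1.17 and 1.71. The causes were not tested. With the replicate number as a block 3276 probe sets and 4 member probe sets passed, and the block changed no member's call. The labels give same-numbered arrays only a number in common, and the correlation of their deviations was 0.091. Whether they were handled together was not tested. Signal over background limits Cfd and most of the terminal pathway.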
